A study of Mus musculus with 21 samples.

Results

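Among 13128 transcript intervals that were read well enough in hearts with intact Lmna, 93 loci (0.708%) had fewer reads in Lmna-deleted hearts both with and without the labelling transgene Uprt. The rule took, of intervals that overlap on 1 strand, the most read one, which left 120310 of 208307 deposited intervals. Reads were expressed as CPM, counts scaled to a common total of reads on kept intervals of a library. A locus was a member if it was not mitochondrial, had a mean of at least 2 CPM in Lmna +/+ mice with Uprt, and had a mean in Lmna F/F mice of at most 0.75 of that in Lmna +/+ mice, in each transgene background. The loci were thus chosen by their mean CPM in each group, that is by the difference in reads between Lmna genotypes, which is described without a test. The rule did not use the T>C share of their reads, its change with Uprt, or position. The reads it used are the denominator of that share, so the difference of the share between Lmna genotypes is a description. The difference between sexes and the spread from heart to heart come from the same reads as the rule and are descriptions.

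The 21 mice formed 4 groups: 6 Lmna F/F mice with Uprt Tg/0 (2 males, 4 females), 8 Lmna +/+ mice with Uprt Tg/0 (4 males, 4 females), 4 Lmna F/F mice without Uprt (2 males, 2 females) and 3 Lmna +/+ mice without Uprt (3 males). All of them carried Myh6MCM Tg/0, a tamoxifen-inducible Cre recombinase under the cardiomyocyte promoter of Myh6, so the floxed F allele is deleted in cells that express Myh6 and not in the other cells of the heart. All of them, controls included, received tamoxifen at 6 to 8 weeks of age (100 µL of a 4 mg/mL solution on 4 days) and 4-thiouracil at 10 mg per g of body weight 2 weeks later, and hearts were taken 6 hours after that dose. RNA came from the whole left-ventricular free wall, 1 library per mouse. In such bulk tissue fewer cells of a type and less RNA per cell cannot be told apart.

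Lmna encodes lamins A and C, filaments that line the inner nuclear membrane and anchor chromatin at the nuclear periphery, and loss of these lamins in heart muscle leads to cardiomyopathy. The enzyme Uprt turns 4-thiouracil into a nucleotide that cells build into new RNA, and iodoacetamide then makes the thiolated base read as C in place of T. The share of a locus' reads with a T>C conversion thus holds RNA made during labelling plus a background that includes errors and sequence variants. The mice without Uprt, which also received 4-thiouracil, give the share in the absence of the transgene. Any label that does not need Uprt was not told apart from errors and variants there. Within cells that express Uprt, RNA that is renewed fast gains a larger share in a labelling period than RNA that is renewed slowly. In bulk tissue the share also depends on which cells the RNA of a locus comes from, which was not tested.

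Libraries held 25947349 to 50951619 reads on kept intervals, with group means of 28.2%, 30.1%, 27.7% and 27.2% mitochondrial reads in Lmna F/F Uprt, Lmna +/+ Uprt, Lmna F/F no Uprt and Lmna +/+ no Uprt mice. The lowered loci together took 68695 to 294749 reads of a library. The intervals carry transcript IDs, of which 0 of 62483 matched the supplied reference table, so loci are given by position on mm39. Which intervals belong to Lmna itself or to markers of the heart's cell types was thus not determined. The tissue label was therefore not checked against markers. Nothing in the labels groups the libraries further, since all of them belong to 1 pool.

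The Lmna F/F hearts without Uprt were uneven at the lowered loci. For each heart, the departure of log2(CPM + 0.5) from its group mean was taken as a median over the 87 lowered loci outside chromosome Y. It was -0.41, -0.26, 0.42 and 0.29 in replicates 1 to 4 of this group, an SD of 0.41, while the median over eligible loci stayed between -0.09 and 0.07 in the same hearts. Replicates 1 and 2 were low and replicates 3 and 4 high. The rule chose loci by the mean of these 4 hearts, which favours loci that are low in some of them, so nothing is read from the contrast with eligible loci. The SD of this departure was 0.14 in Lmna F/F Uprt hearts, 0.06 in Lmna +/+ Uprt hearts and 0.07 in Lmna +/+ no Uprt hearts. Without replicates 1 and 2 together, 54 loci met the rule, 51 of them among the 93. With any 1 library left out, 82 to 128 loci met it.

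**Figure D1:**
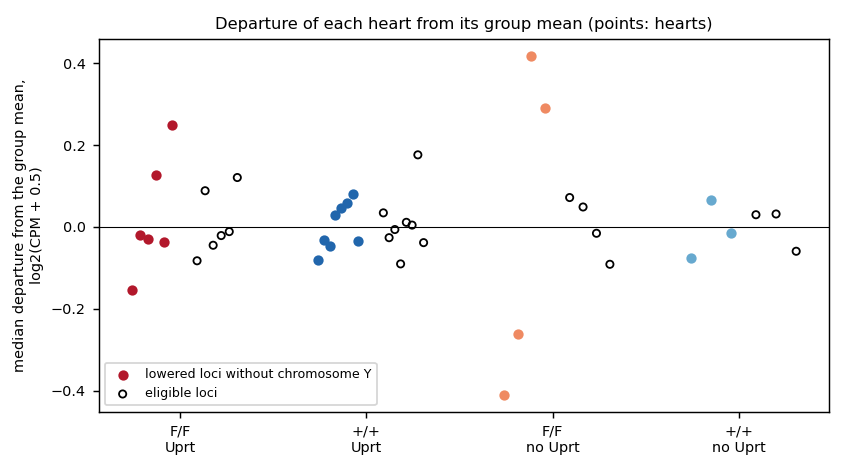
Median departure of each heart from its group mean, in log2(CPM + 0.5), for the 87 lowered loci outside chromosome Y (filled points) and for the 13128 eligible loci (open points), by group. The 4 Lmna F/F no Uprt hearts spread from -0.41 to 0.42 at the lowered loci, while the open points of all groups stay between -0.09 and 0.18.

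The values that chose the loci were as follows. The ratio of mean CPM, Lmna F/F over +/+, had a median of 0.690 over the 93 loci with Uprt and 0.578 without, with lowest values of 0.241 and 0.212. Over all eligible loci the medians were 1.08 and 1.10, and 254 and 958 loci lay at or under 0.75. Just inside the limit were loci at 36896726 to 36897085 of chromosome 18, at 102271130 to 102271404 of chromosome 10 and at 58148042 to 58152989 of chromosome 13, whose larger ratio was 0.7481, 0.7466 and 0.7459. Just outside were loci at 142459394 to 142461677 of chromosome 2, at 12638856 to 12640323 of chromosome 17 and at 70194289 to 70195299 of chromosome 8, at 0.7501, 0.7507 and 0.7510. No gap sets the class apart from the loci next to it. With library sizes scaled by TMM factors, 357 loci met the rule, among them all 93.

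The lowered loci had a lower median level of reads than eligible loci. Their median level in Lmna +/+ Uprt hearts was 5.99 CPM, against 9.01 CPM over eligible loci, 40 of the 93 lay under 5 CPM (4078 of 13128 eligible loci), and 24 reached 20 CPM (3817 eligible). The rule used this level both as its minimum and in its ratio, so nothing is read from this contrast. The intervals of the lowered loci had a median length of 766 bases and a T content of 26.6%, against 927.5 bases and 27.8% over eligible loci. The + strand held 45 of the 93 and 7778 of the 13128 eligible loci. Reads that map to several places made up over 10% at 2 of the 93 loci (2.15%), against 7.02% of eligible loci.

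By position, chromosome 3 held the most, 12 of its 706 eligible loci (1.70%), and chromosome 10 held 9 of 626 (1.44%). The reference table places Lmna on chromosome 3, and whether any of the 12 loci there lies in Lmna was not determined. Chromosome 8 held 0 of 664 and chromosome Y 6 of 7. On chromosome 3, neighbouring pairs within 100000 bases were the loci from 88390513 to 88390603 and from 88457127 to 88457254, the loci from 97650802 to 97650918 and from 97660332 to 97660511, and a trio from 63287754 to 63293451, from 63388533 to 63388614 and from 63388707 to 63388710. A further pair lay on chromosome 18, from 44448774 to 44448949 and from 44488348 to 44488791. On chromosome Y the loci that start at 1028188, 1096861 and 1151949 followed each other within that distance, as did those that start at 1260771 and 1266359. In all, 4 members shared a transcript ID with another: the pair 9413 bases apart on chromosome 3 and the last 2 intervals of the trio, which lie 92 bases apart, less than the 100 bases of a read, and are not independent.

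The lowered loci included 6 of the 7 eligible loci of chromosome Y. With sex in a fit of all 21 libraries (edgeR's quasi-likelihood test, adjusted p under 0.05), 7 of the 93 loci were higher in males, against a background of 0.228% of all loci tested and 0.267% of eligible loci, and 0 were lower, against 0.0673% and 0.152%. The 7 were the 6 loci of chromosome Y and 1 on chromosome 18. DESeq2 called 10, and without Lmna F/F no Uprt replicate 2 edgeR called 11. At an unadjusted p under 0.05 it was 27 of the 93, and 1795 of the 13128 eligible loci. Each Lmna F/F group held a smaller share of males than its Lmna +/+ group (2 of 6 against 4 of 8 with Uprt, and 2 of 4 against 3 of 3 without), so the rule favours loci with more reads in males, and nothing is read from these counts against their background.

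The best read chromosome Y locus, from 1260771 to 1263287, had 59.8 and 93.7 CPM in the males and 2.71 to 2.97 CPM in the females of the Lmna F/F Uprt group. Lmna +/+ Uprt males ran from 71.5 to 118 CPM and females from 2.03 to 3.85 CPM. Without Uprt, Lmna F/F males had 92.0 and 97.3 CPM, Lmna F/F females 2.70 and 4.08 CPM, and the Lmna +/+ males 88.6, 103 and 107 CPM. The male and female ranges lay far apart in every group that holds both sexes, and the log2 fold change, male over female, was 4.99 ± 0.14 (SE). For its neighbour from 1266359 to 1266519 it was 6.30 ± 0.26 (SE).

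Among males alone, 0 of the 6 chromosome Y loci had a ratio of at most 0.75 in both backgrounds. The locus from 1260771 had ratios of 0.807 with Uprt and 0.952 without, and the neighbour from 1266359 had 1.03 and 1.19. Of all 93 loci, 69 kept ratios of at most 0.75 in both among males alone, and 68 of these also had a mean of 2 CPM in Lmna +/+ Uprt males. When each sex was weighted equally with Uprt and males alone were used without it, 127 loci met the rule, 75 of them among the 93.

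**Figure D2:**
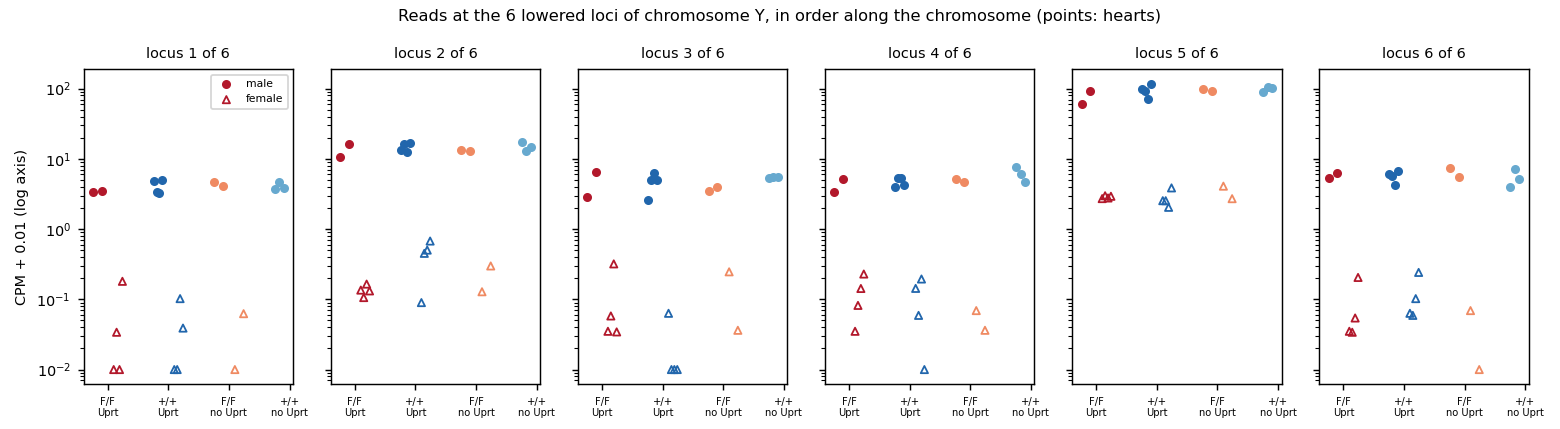
Reads at the 6 lowered loci of chromosome Y by group (CPM with 0.01 added, log axis), with males as filled circles and females as open triangles. Every male lies above every female at each of the 6 loci, and the locus at 59.8 to 118 CPM in males is the one from 1260771 to 1263287.

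The locus of chromosome 18 from 47038424 to 47040309 was the other one called between sexes (log2 fold change 1.57 ± 0.34, SE). It had 1.92 and 1.37 CPM in Lmna F/F Uprt males and 0.853 to 1.68 CPM in the females. Lmna +/+ Uprt males had 3.04 to 9.25 CPM and females 0.579 to 1.18 CPM. Without Uprt it was 0.901 and 3.85 CPM in Lmna F/F males, 2.13 and 1.08 CPM in Lmna F/F females, and 1.70, 3.09 and 3.32 CPM in Lmna +/+ males. Here the male and female ranges were apart in the Lmna +/+ Uprt mice and overlapped in both Lmna F/F groups, and whether the sex difference depends on Lmna was not tested.

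The T>C share of the lowered loci was higher with Uprt. Pooled over the 93 loci, the share was 6.72% ± 1.12 in Lmna F/F Uprt hearts (SD, n = 6) and 5.83% ± 0.920 in Lmna +/+ Uprt hearts (SD, n = 8). The hearts without the transgene had 1.93% ± 0.358 in the Lmna F/F group (SD, n = 4) and 1.90% ± 0.492 in the Lmna +/+ group (SD, n = 3). The 14 hearts with Uprt lay between 4.64% and 8.20% and the 7 without between 1.37% and 2.35%, so the groups did not overlap. The most read locus weighs heavily in this pool: without it the 4 means were 7.34%, 6.07%, 2.61% and 2.54% in the same order. Over eligible loci the pooled shares were 5.25% ± 0.324, 4.95% ± 0.454, 3.5% ± 0.303 and 3.12% ± 0.417. There too the hearts with and without Uprt did not overlap, with at least 4.47% with it and at most 3.82% without. The 95% Wilson interval of a single heart's pooled share spanned at most 0.320 percentage points and covers counting error only, since PCR copies are not independent molecules.

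**Figure D3:**
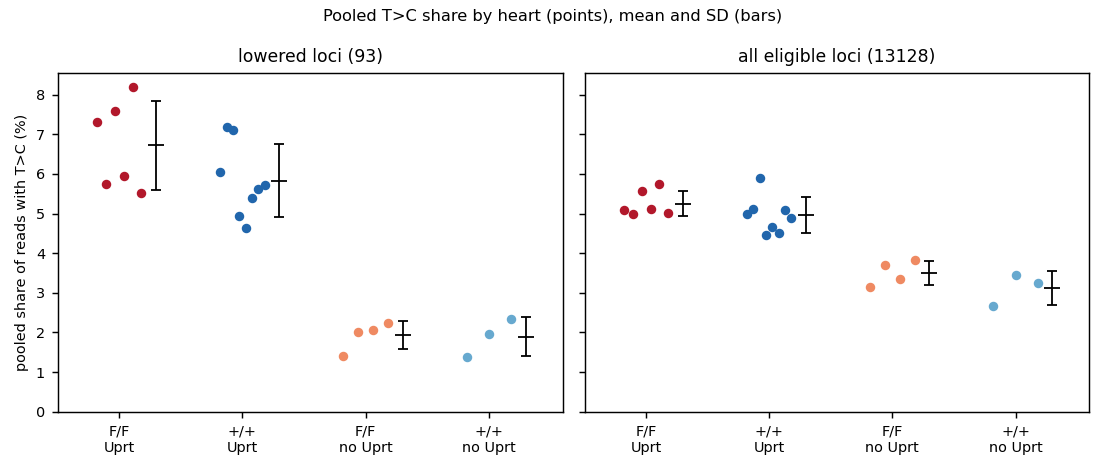
T>C share in percent of reads, pooled over the 93 lowered loci (left) and over all 13128 eligible loci (right) in each heart, with the mean and SD of each group. At the lowered loci the hearts with Uprt lie at 4.64% or above and those without at 2.35% or below. Over eligible loci these limits are 4.47% and 3.82%.

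Locus by locus, the T>C share was compared between Uprt and none over both Lmna genotypes, with a quasi-likelihood fit in edgeR that sets converted against unconverted reads at all 21583 loci of enough T>C reads. Of the lowered loci, 91 had the 20 converted and 20 unconverted reads needed, and the remaining 2 (chromosome 7 from 79745369 and chromosome Y from 910448) did not. The share was higher with Uprt at 45 of the 91 (49.5%), against 38.4% of all loci tested and 56.6% of eligible loci tested, and lower at 0, against 0.218% and 0.208%. Their count is thus between both backgrounds. The median log2 odds ratio was 1.33 over the 91 loci and 1.19 over eligible loci, and 83 of the 91 lay above 0, as did 12009 of 12980 eligible loci. At the loci called higher, the median was 1.99, with the highest at 4.26 (chromosome 3 from 28719829, a locus of 2.68 CPM).

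The calls followed the read level. Of lowered loci with at least 5 CPM, 34 of 53 were called higher (64.2%), close to the 64.5% of eligible loci of that level. Under 5 CPM, 11 of 38 were called (28.9%), against 38.4% of eligible loci. A change that was not called at a sparsely read locus was not detectable at this depth, which does not show that it is absent. Leaving out chromosome Y, 43 of 86 loci were called. In Lmna +/+ mice alone, with 3 mice without Uprt, 29 of 88 were called, against 19.9% of all loci tested. In Lmna F/F mice alone it was 33 of 79, against 34.7% of all loci tested. Those backgrounds include loci under the 2 CPM that members must reach. The share of eligible loci was not computed for these fits, so nothing is read from the contrast.

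**Figure D4:**
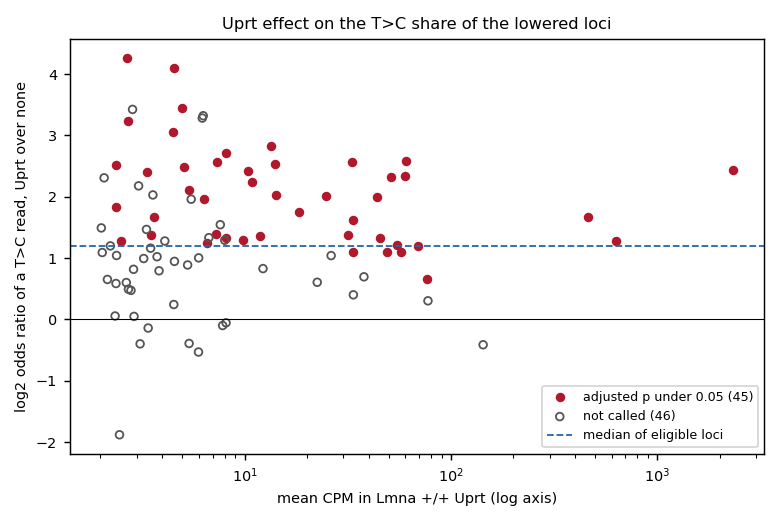
Odds ratio for conversion on the log2 scale, Uprt over none, against mean CPM in Lmna +/+ Uprt hearts (log axis) for the 91 lowered loci tested. Filled points are the 45 with an edgeR adjusted p under 0.05, open points the other 46, and the dashed line is the median of eligible loci, 1.19.

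Separation of single mice gives a view without a model. Among loci with reads in every mouse, the T>C share of all 14 mice with Uprt exceeded that of all 7 without at 16 of 89 lowered loci (17.98%), against 12.7% of eligible loci. Within Lmna F/F mice the 6 with Uprt exceeded the 4 without at 25 of 91 loci (27.5%; eligible 30.9%), and within Lmna +/+ mice the 8 exceeded the 3 at 26 of 90 (28.9%; eligible 25.3%). At 20 CPM or more the 14 exceeded the 7 at 10 of 24 lowered loci (41.7%) and at 1032 of 3817 eligible loci (27.0%).

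The most read lowered locus by far was ENSMUST00000008021.3 on chromosome 11, + strand, from 98275372 to 98275779, with 1155 to 2028 CPM (median 1773) in Lmna F/F Uprt hearts and 1778 to 3293 CPM (median 2202) in Lmna +/+ Uprt hearts. Its T>C share ran from 4.29% to 8.48% (median 5.95%) in Lmna F/F Uprt hearts and from 4.49% to 7.16% (median 5.78%) in Lmna +/+ Uprt hearts. Without Uprt it was 0.519%, 1.34%, 1.17% and 1.70% in Lmna F/F hearts and 0.689%, 1.39% and 1.81% in Lmna +/+ hearts. Every heart with Uprt stood above every heart without it, and the 2 Lmna genotypes overlapped. The log2 odds ratio was 2.43 ± 0.19 (SE, edgeR adjusted p = 3.08e-11), and the Wilson interval of a single heart spanned at most 0.457 points.

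Next in read level came a locus on chromosome 2 from 25356721 to 25356843 (469 ± 112 CPM in Lmna F/F Uprt and 631 ± 319 CPM in Lmna +/+ Uprt hearts, SD, n = 6 and 8). Its T>C share was lower than at the first locus: 1.81% to 4.09% (median 2.36%) in Lmna F/F Uprt and 1.37% to 4.08% (median 1.92%) in Lmna +/+ Uprt hearts. The Lmna F/F hearts without Uprt had 0.824%, 0.901%, 1.07% and 1.01%, and the Lmna +/+ hearts without it 0.647%, 0.900% and 1.20%. Here too the transgene groups did not overlap (log2 odds ratio 1.29 ± 0.20, SE, edgeR adjusted p = 3.15e-06).

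The interval on chromosome 14 from 28749712 to 28755602 spans 5891 bases and had 331 ± 39.4 CPM in Lmna F/F Uprt and 461 ± 32.8 CPM in Lmna +/+ Uprt hearts (SD, n = 6 and 8). Its T>C share was 7.47% to 10.3% (median 7.97%) in Lmna F/F Uprt hearts and 3.49% to 8.65% (median 6.58%) in Lmna +/+ Uprt hearts. Without Uprt the values were 1.19%, 3.29%, 2.54% and 2.03% in Lmna F/F and 1.75%, 1.82% and 2.62% in Lmna +/+ hearts. Both genotypes rose with Uprt, and the hearts of the 2 genotypes overlapped in each transgene background.

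At ENSMUST00000192926.2, - strand of chromosome 3, 2 intervals were among the 10 most read, and neither was called higher with Uprt. The one from 63388533 to 63388614 had a T>C share of 0.359% to 1.30% (median 0.804%) in Lmna F/F Uprt hearts and 0.402% to 1.27% (median 0.795%) in Lmna +/+ Uprt hearts. In hearts without Uprt it was 1.20%, 0.674%, 1.35% and 0.353% in Lmna F/F and 1.05%, 0.896% and 0.901% in Lmna +/+. All 4 groups overlapped at about the same low level (log2 odds ratio -0.41 ± 0.26, SE, edgeR adjusted p = 0.216). The interval from 63388707 to 63388710 is 4 bases long and holds 0% T, and its mean share with Uprt was 0.870% in Lmna F/F and 1.28% in Lmna +/+ hearts, against 0.734% and 0.763% without (0.30 ± 0.39, SE, edgeR adjusted p = 0.564). At the first interval, with 913 to 16100 reads per heart, the Wilson interval of a single share spanned at most 1.12 points.

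A locus on chromosome 3 from 95805080 to 95805457 stood out by a high share in every group. It ran from 20.6% to 26.8% (median 22.9%) in Lmna F/F Uprt hearts and from 16.8% to 26.4% (median 18.9%) in Lmna +/+ Uprt hearts. Without Uprt it was 15.6%, 12.0%, 12.8% and 13.6% in Lmna F/F and 16.3%, 18.1% and 16.8% in Lmna +/+ hearts. The Lmna F/F groups did not overlap, while the Lmna +/+ groups did. The log2 odds ratio over both genotypes was 0.66 ± 0.15 (SE, edgeR adjusted p = 0.000744), and in Lmna +/+ mice alone it was 0.27 (edgeR adjusted p = 0.463).

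The other 4 of the 10 most read loci all gained label. They lie at 81043687 to 81046711 of chromosome 10, at 132592576 to 132592975 and 132371002 to 132372662 of chromosome 2, and at 57483487 to 57487702 of chromosome 6, with log2 odds ratios of 1.20, 2.58, 2.34 and 1.11 (edgeR adjusted p at most 0.000317). The one from 132592576 had a share of 16.8% ± 3.80 in Lmna F/F Uprt and 16.4% ± 3.51 in Lmna +/+ Uprt hearts (SD, n = 6 and 8), against 3.41% ± 1.84 in Lmna F/F and 3.27% ± 1.23 in Lmna +/+ hearts without Uprt (SD, n = 4 and 3).

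**Figure D5:**
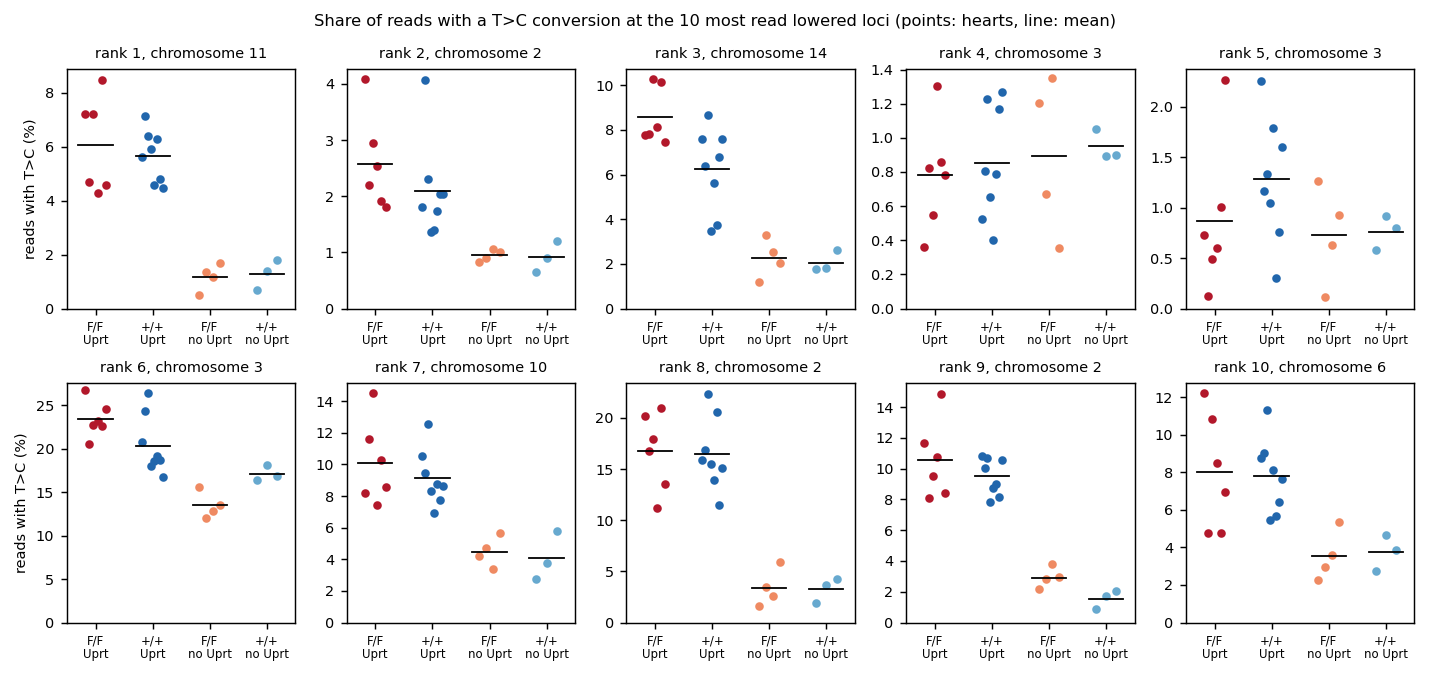
T>C share in percent of reads at the 10 most read lowered loci, in order of read level, with a point per heart and a line at the group mean. Ranks 4 and 5 are the adjoining chromosome 3 intervals without a rise, rank 6 has 12.0% or more in every heart, and at ranks 1, 2, 3, 7, 8 and 9 every heart with Uprt lies above every heart without.

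Among lowered loci of at least 5 CPM that were called, the largest rise was on chromosome 12 from 86565840 to 86568399, with 2.83 ± 0.37 as its log2 odds ratio (SE; edgeR adjusted p = 1.74e-07). Its T>C share ran from 8.66% to 23.9% (median 10.1%) in Lmna F/F Uprt and from 8.5% to 15.5% (median 12.1%) in Lmna +/+ Uprt hearts. Without Uprt it was 1.08%, 1.14% and 3.51% in Lmna F/F replicates 2 to 4 and 3.19%, 0.954% and 5.33% in Lmna +/+ hearts. Lmna F/F no Uprt replicate 1 had 0 of 257 reads converted, which allows a share of up to 1.17%. All 14 hearts with Uprt lay above all 7 without it.

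The chromosome 10 locus from 84449591 to 84450223 had 12.2% to 22.1% (median 18.7%) in Lmna F/F Uprt and 10.7% to 26.0% (median 15.7%) in Lmna +/+ Uprt hearts. The hearts without Uprt had 1.79%, 2.70%, 4.75% and 3.01% in Lmna F/F and 4.19%, 2.08% and 3.66% in Lmna +/+. The groups were far apart, with 2.57 ± 0.24 as the log2 odds ratio (SE; edgeR adjusted p = 6.79e-10).

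Still larger odds ratios at this level, on few T>C reads, were not called. The locus at 152286054 to 152286250 of chromosome 2 had a log2 odds ratio of 3.32 ± 1.55 and the one at 69832052 to 69832402 of chromosome 11 had 3.28 ± 1.63 (SE; edgeR adjusted p = 0.0865 and 0.107). The chromosome 2 locus had few conversions in any group: 0% to 2.80% (median 0.270%) of reads were converted in Lmna F/F Uprt hearts and 0% to 6.49% (median 1.32%) in Lmna +/+ Uprt hearts. Of the hearts without Uprt, 1 Lmna +/+ heart had 0.521% and all others had 0 T>C reads, which allows shares of up to 1.06% to 4.69%. At the chromosome 11 locus, 14 of the 15 T>C reads of the Lmna F/F Uprt group came from replicate 5, and without that heart the log2 odds ratio was 1.20.

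The other loci with large rises were at 193025819 to 193026183 of chromosome 1 (log2 odds ratio 2.72), at 99124224 to 99127519 of chromosome 3 (2.56) and at 132232531 to 132235095 of chromosome 1 (2.54), with edgeR adjusted p of 2.80e-05, 8.69e-05 and 0.000460. At the locus from 99124224 the share was 1.73% to 13.7% (median 7.49%) in Lmna F/F Uprt hearts and 7.75% to 23.4% (median 13.6%) in Lmna +/+ Uprt hearts. The Lmna F/F median was the lower one, and the ranges overlapped. The transgene effect was not called in Lmna F/F mice alone at the loci from 99124224 (2.04, edgeR adjusted p = 0.0596) and from 132232531 (1.60, edgeR adjusted p = 0.0664), nor in Lmna +/+ mice alone at the locus from 193025819 (1.48, edgeR adjusted p = 0.10).

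The smallest changes among loci of at least 5 CPM, beside the 4-base interval above, were at 88457127 to 88457254 of chromosome 3 (log2 odds ratio -0.05 ± 0.41), at 63287754 to 63293451 of chromosome 3 (-0.10 ± 0.58) and at 102567990 to 102568903 of chromosome 15 (-0.39 ± 0.54; SE, edgeR adjusted p = 0.940, 0.919 and 0.600). The first of them had 2.41% to 13.4% (median 7.49%) in Lmna F/F Uprt and 2.01% to 10.4% (median 6.51%) in Lmna +/+ Uprt hearts, against 7.77%, 5.81%, 3.64% and 4.23% in Lmna F/F and 13.6%, 9.39% and 8.29% in Lmna +/+ hearts without Uprt. The 3 Lmna +/+ hearts without Uprt lay above the 4 Lmna F/F hearts without it, and both overlapped the hearts with Uprt. With 86 to 383 reads per heart the interval of a single share spanned 4.05 to 10.4 points.

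Among the lowered loci, 5 (5.38%) without Uprt reached a T>C share of 20% in some mouse with 20 or more reads there, against 6.31% of eligible loci. They start at 124811203 of chromosome 6, 58808151 and 47874457 of chromosome 19, 1096861 of chromosome Y and 7119716 of chromosome 11, and edgeR called none of these 5 higher with Uprt (adjusted p from 0.241 to 0.946). The chromosome 19 locus from 47874457 had 2.82% ± 3.27 in Lmna F/F hearts without Uprt (SD, n = 4) and 13.8% ± 8.21 in Lmna +/+ hearts without Uprt (SD, n = 3). These 5 loci vary widely between mice that share a group. At the chromosome Y locus females had only 0 to 14 reads, so their shares there carry little information.

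Between Lmna genotypes, the T>C share of the lowered loci differed by small amounts. With Uprt the share in Lmna F/F minus that in Lmna +/+ hearts had a median of 0.479 points over the 93 loci, with quartiles of -0.642 and 1.89, and it was higher in Lmna F/F at 59 loci (63.4%). Over eligible loci the median was 0.157 points and 55.9% were higher. Without Uprt the median was -0.0537 points, with 41 loci higher (44.1%) and 50 lower in Lmna F/F. Over eligible loci it was 0.0675 points and 52.8% were higher. The reads that chose the loci are the denominator of the share, so nothing is read from these contrasts with eligible loci. The difference of the Uprt effect between Lmna genotypes was tested in the same edgeR fit: 0 of the 91 loci were called, as were 0 of 21583 loci tested (0%), with 7 lowered loci and 729 of the 12980 eligible ones at an unadjusted p under 0.05.

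T>C reads themselves are part of the reads that chose the loci, so their change is a description. On the CPM scale, the lowered loci together had 227 ± 48.8 T>C CPM in Lmna F/F Uprt (SD, n = 6) and 284 ± 69.5 in Lmna +/+ Uprt hearts (SD, n = 8). Without Uprt they had 56.4 ± 26.8 in Lmna F/F (SD, n = 4) and 108 ± 31.7 in Lmna +/+ hearts (SD, n = 3). The ranges overlapped in each background: 160 to 271 in Lmna F/F against 223 to 429 in Lmna +/+ hearts with Uprt, and 28.6, 41.0, 67.6 and 88.3 in Lmna F/F against 73.5, 115 and 136 in Lmna +/+ hearts without it.

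Mean T>C CPM was lower in Lmna F/F at 77 of the 93 loci with Uprt (82.8%; eligible 34.8%), at 69 without (74.2%; eligible 39.4%) and at 58 in both (62.4%; eligible 15.9%). The median change, log2(T>C CPM + 0.5) in Lmna F/F minus +/+, was -0.18 with Uprt and -0.21 without, against 0.08 and 0.06 over eligible loci. Leaving out Lmna F/F no Uprt replicates 1 and 2 gave -0.09 without Uprt. The pseudocount holds these values near 0 at sparsely read loci: as a plain ratio of means the medians were -0.47 with Uprt over 92 loci and -0.77 without over 80.

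The largest fall of T>C reads was at the interval from 63388533 to 63388614 of ENSMUST00000192926.2. It had 0.120 to 0.553 T>C CPM (median 0.247) in Lmna F/F Uprt hearts and 0.293 to 2.17 (median 1.39) in Lmna +/+ Uprt hearts. Without Uprt it had 1.15, 0.207, 0.682 and 0.170 in Lmna F/F and 1.54, 3.01 and 2.85 in Lmna +/+ hearts. The groups without Uprt did not overlap, those with Uprt did, and the log2 changes were -1.18 and -1.49. The share of this locus was not called higher with Uprt. At the chromosome 11 locus of ENSMUST00000008021.3, which does gain label, T>C CPM was 105 ± 38.9 in Lmna F/F Uprt and 134 ± 48.9 in Lmna +/+ Uprt hearts (SD, n = 6 and 8), and 17.8 ± 13.0 in Lmna F/F and 38.1 ± 17.8 in Lmna +/+ hearts without Uprt (SD, n = 4 and 3).

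In contrast, T>C CPM at the chromosome 3 locus from 63287754 to 63293451 was higher in Lmna F/F Uprt hearts, 0.235 ± 0.188 against 0.0636 ± 0.103 in Lmna +/+ Uprt hearts (SD, n = 6 and 8), on 55 and 20 T>C reads in all. Of the 8 Lmna +/+ Uprt hearts, 4 had no T>C read there, which at 202 to 312 reads allows shares of up to 0.962% to 1.49%. This locus lies on the opposite strand from ENSMUST00000192926.2 and close to it.

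From heart to heart within a group, in the reads that chose them, the lowered loci had low correlations with each other. Over the 6 Lmna F/F Uprt hearts, the Pearson correlation of log2(CPM + 0.5) between pairs of lowered loci had a median of 0.0736 (quartiles -0.315 and 0.437), against 0.113 between pairs of eligible loci. Over the 8 Lmna +/+ Uprt hearts it was 0.0218 (quartiles -0.299 and 0.362), against 0.0819. Without the chromosome Y loci the medians were 0.109 and 0.0177. Among loci of at least 20 CPM and outside chromosome Y, the medians were 0.0594 and 0.0338 over the lowered loci and 0.191 and 0.118 over eligible loci. The pairs share libraries and depth, and 6 or 8 hearts give wide single correlations, so these are descriptions.

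The T>C shares of the loci, in turn, were correlated from heart to heart at the loci of higher read level. Across the 24 lowered loci of at least 20 CPM, the Pearson correlation between pairs of hearts had a median of 0.901 over 15 pairs of Lmna F/F Uprt hearts and 0.913 over 28 pairs of Lmna +/+ Uprt hearts, against 0.848 and 0.841 across eligible loci of that level. Across all lowered loci with reads in every heart of the group it was 0.336 (92 loci) and 0.594 (90 loci), against 0.704 and 0.678. These include chromosome Y loci with few reads in females. Of those, the one from 1260771 is also among the 24 and had 66 to 133 reads in females with Uprt. The one from 1266359 had 62.5% on 8 reads in Lmna F/F Uprt replicate 6 and 100% on 3 reads in Lmna +/+ Uprt replicate 7. The correlation of shares without chromosome Y was not computed, so nothing is read from the contrast with eligible loci. Loci are not independent replicates, and the hearts share the base composition of each locus.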

How the data were processed

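SLAM-IT-seq libraries of 21 hearts were made from 1.5 µg of RNA alkylated in 12 mM iodoacetamide and sequenced from the 3′ end as single reads of 100 bases, per the labels' protocols. The deposited table gives, per interval and library, read counts, T>C read counts, multimapped read counts, and counts of T positions covered and converted, per the file headers, which have the column layout of SlamDunk. Its conversion rate is a fraction and its CPM column a score that the authors' tool computed, per the file headers; neither was used. Coordinates are on mm39, the build that the submitters' processing notes name; aligner settings and variant filters were not given in those sources. T>C reads exceeded reads in 0 rows, and 0 libraries lay outside the labels.

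Members and lists were chosen with earlier results of these data known. CPM was computed over reads on kept intervals. T>C shares were tested with edgeR 4.0.16 (glmQLFit, glmQLFTest) in R 4.3.3 on converted and unconverted reads, with library effects and with terms for read type within group and within sex; sex was tested on reads passing filterByExpr (minimum count 10) with TMM and group terms. P-values were adjusted over all loci tested (Benjamini-Hochberg, threshold 0.05); a standard error is the log2 change over the square root of the F statistic. Replicates are numbered in accession order. Both tests were tested on simulated data first. Named are the 10 most read loci, the 8 largest rises, called or not, and 4 smallest changes of T>C share with Uprt among tested loci of at least 5 CPM, and up to 2 loci per direction with the smallest adjusted p for sex; loci that carry an extreme, stand on chromosome Y or 18, or reach 20% without Uprt were named after their values were seen. Gene lists and cell type markers were not run, as 0 of 62483 transcript IDs matched the reference table (GRCm38.p6). Alternatives were DESeq2 1.42.0, other scalings, filters, limits and subsets, and each library left out. Leaving out chromosome Y, the most read locus, 2 libraries at once or the pseudocount, weighting sexes equally, a greedy choice of intervals and correlations at 20 CPM or more were alternatives chosen after seeing the data.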

Additional observations from a re-analysis of the deposited data

Results flagged for a closer look

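At the chromosome 2 locus from 25356721 to 25356843, Lmna +/+ Uprt replicate 2 had a T>C share of 4.08% (95% Wilson interval 3.84% to 4.33%), while the other 7 hearts of its group lay between 1.37% and 2.31%. At the chromosome 3 locus from 63287754 to 63293451, Lmna +/+ Uprt replicate 3 had 3.96% on 12 T>C reads of 303 (interval 2.28% to 6.79%), while the other 7 lay between 0% and 1.41%. At the chromosome 11 locus from 69832052 to 69832402, Lmna F/F Uprt replicate 5 had 5.93% on 14 T>C reads of 236 (interval 3.57% to 9.71%), while the other 5 lay between 0% and 0.962%. At the same locus Lmna +/+ Uprt replicate 1 had 5.53% on 12 T>C reads of 217 (interval 3.19% to 9.42%), while the other 7 lay between 0% and 1.24%. Each was picked out because 1 heart lay far from the rest of its group. Chance picks about 1 in 20 groups, and 72 groups were looked at, of which these 4 were picked.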

How the results depend on the processing

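The 93 loci are a class with soft edges. Their number was 46 and 190 at ratio limits of 0.70 and 0.80, 149 and 53 at minimum levels of 1 and 5 CPM, 357 with TMM scaling, 233 in males alone (68 of them among the 93), 54 when replicates 1 and 2 of the Lmna F/F no Uprt group were both left out, and 82 to 128 with 1 library left out. Loci with a higher T>C share with Uprt numbered 29 in Lmna +/+ mice alone, and 42 to 46 with 1 library left out. Loci that differ between sexes numbered 17 without a filter on low counts, 11 in the 14 mice with Uprt alone, 1 without chromosome Y, and 6 to 11 over the fits that lack 1 library, with 11 when it was Lmna F/F no Uprt replicate 2. The cause was not tested.

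T>C conversions per read base over T, another scale, were 0.436%, 0.375%, 0.115% and 0.118% in Lmna F/F Uprt, Lmna +/+ Uprt, Lmna F/F no Uprt and Lmna +/+ no Uprt hearts. Without the most read locus the pooled shares without Uprt were 2.61% in Lmna F/F and 2.54% in Lmna +/+ hearts. With 1 library left out the pooled shares ran from 6.42% to 6.96%, 5.64% to 6.00%, 1.83% to 2.11% and 1.67% to 2.16% in the 4 groups. The median T>C read change was -0.46 with Uprt and -0.68 without when scaled to all T>C reads of the library, -0.33 and -0.54 with a pseudocount of 0.1, and -0.47 and -0.77 with none; with 1 library left out it ran from -0.20 to -0.15 and from -0.24 to -0.15. The median correlation over hearts was 0.109 in Lmna F/F Uprt hearts without chromosome Y, and in Lmna +/+ Uprt hearts 0.0685 with TMM and 0.0338 at 20 CPM or more; with 1 library left out it ran from 0.0193 (Lmna F/F Uprt replicate 6 out) to 0.0917 and from 0.00926 (Lmna +/+ Uprt replicate 6 out) to 0.0304 (replicate 4 out). Of the alternative values for the T>C share of single named loci, 533 did not change between called and not called. Direction was compared only where the main or the alternative fit called the locus, and there it was kept. A further 4, given with their loci, lost the call, and 1 gained it (chromosome 2 from 152286054, 3.5 with edgeR adjusted p = 0.0491 and no sex term). Of 50 values for sex, all 50 kept the call and the direction. Leaving out Lmna F/F Uprt replicate 5 lowered the log2 odds ratio of the chromosome 11 locus from 69832052 to 1.20, which was not called with that heart either. No paired analysis was possible because the labels give no replicate numbers.

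Depth limits the sparsely read loci, 40 of which lie under 5 CPM. Sex and group cannot be told apart in the 3 Lmna +/+ mice without Uprt, all male.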
